A study of Homo sapiens with 12 samples.

Results

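The genes described here are 9 receptor tyrosine kinases of myeloid or growth control, CSF1R, FLT3, KIT, MERTK, AXL, TYRO3, IGF1R, FGFR1 and LTK, taken by symbol from a table of raw read counts with 54628 gene symbols. All 9 symbols had a row, and 8 passed the filter on low counts that left 15173 genes for testing; KIT did not. The counts came from OCI-AML3, an established human acute myeloid leukaemia line, after 24 h of treatment in 4 groups of 3 libraries. The Comb cells received both drugs, the ERKi cells an inhibitor of the kinase ERK (compound 27 in the labels), the ABT199 cells venetoclax, which inhibits the survival protein BCL2, and the DMSO cells the solvent. All are this 1 line, with no genetic change between groups, and drug doses were not used here.

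Receptor tyrosine kinases span the plasma membrane, pair when a ligand binds outside the cell and then phosphorylate each other, which recruits adaptors that switch on RAS, RAF, MEK and ERK and the PI3 kinase pathway. ERK in turn induces inhibitors of the same route, so that a block of ERK is known in other cancers to release upstream receptors, a response called feedback reactivation. In the myeloid lineage FLT3 and KIT serve progenitors, CSF1R serves monocytes and macrophages, and MERTK, AXL and TYRO3 serve the uptake of dying cells. The counts measure RNA; receptor protein, its place on the surface and its kinase activity were not measured, so reactivation itself was not tested.

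Library totals ran from 19199296 to 21275065 counts. DMSO replicate 1 was unlike its fellow replicates: the chi-square over genes, divided by its degrees of freedom, was 17.99 and 16.98 for its pairs and 2.32 to 5.53 for the other pairs of replicates. Nothing in the labels says that replicates were separate cultures, so p-values measure the spread between these libraries, which may be technical. The labelled cell type was checked by its markers, and all 10 myeloid markers were detected in every group, with summed levels of 5860 to 6090 CPM (counts scaled to a library of 1e+06) in Comb, 4450 to 4610 CPM in ERKi, 1280 to 1300 CPM in ABT199 and 1340 to 1390 CPM in DMSO libraries. Without LYZ, the lysozyme gene, the other 9 summed to 2010 to 2050 CPM in Comb, 2050 to 2090 CPM in ERKi, 1100 to 1130 CPM in ABT199 and 1130 to 1170 CPM in DMSO libraries. The markers did not move together: by edgeR 7 were called higher and 3 lower (FCGR1A, MPO and CD14) in ERKi against DMSO. Over all tested genes, 34.5% were called higher and 35.2% lower there. CD14 passed the filter on low counts through libraries without ERKi alone, where it is higher, so its call is not used. The B and T cell genes MS4A1 and CD3D and the haemoglobin gene HBB were at 0 in every group. The endothelial sum was 88.3 to 97.9 CPM in Comb, 73.4 to 76.9 CPM in ERKi, 12.8 to 15.1 CPM in ABT199 and 11.5 to 12.2 CPM in DMSO libraries, nearly all of it PECAM1, which myeloid cells also express, and CDH5 was at 0 in every group. As a check of the inhibitor, all 11 tested ERK output genes were called lower in ERKi against DMSO by edgeR, where 35.2% of all tested genes were. Their list was chosen with earlier results of these data known. DUSP6, the phosphatase that inactivates ERK, had 1.62, 1.19 and 1.0 CPM in Comb, 1.89, 2.68 and 2.14 CPM in ERKi, 15.42, 14.1 and 17.8 CPM in ABT199 and 15.37, 14.69 and 14.08 CPM in DMSO libraries. SPRY4, an inhibitor of receptor signalling, was at -1.11 on the log2 scale in ERKi against DMSO, and the ERK-induced transcription factors ETV4 and EGR1 were at -5.14 and -4.32. In Comb against ERKi 8 of the 11 were called higher and 2 lower by edgeR. Those are shares of 72.7% and 18.2%, against 26.5% and 24.3% of all tested genes. EGR1 was at 1.39 there, ETV4 at 0.86 and PHLDA1 at -2.07 (adjusted p of 0.0185 or lower by edgeR). The ETV4 call was lost with limma-voom (adjusted p = 0.055) and without ERKi replicate 1 (0.079) or Comb replicate 2 (0.0618).

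The DNA just before the start site is shown for 6 of the receptors: LTK, CSF1R, MERTK, FLT3 and AXL, whose RNA was higher with ERKi, and TYRO3, the relative of MERTK and AXL whose RNA was not. Where a gene had more than 1 window, the inner one of CSF1R and the first of AXL and TYRO3 are shown. Each line gives the 250 bases upstream of the start, 5′ to 3′ on the gene's own strand, from RefSeq (GRCh38.p14). RefSeq promoter windows matched 8 of the 9 genes. Capitals mark 7 short motifs searched on both strands: GAGGAA (the core bound by PU.1), TGTGGT (RUNX), TTGCNNAA (CEBP), CACGTG (MITF and TFEB), TGANTCA (AP-1), GTAAACA (FOXO) and GGGCGG (the GC box). The windows are, in order, LTK at chr15:41513828-41514077 (minus strand), CSF1R at its inner, myeloid start at chr5:150086555-150086804 (minus strand), MERTK at chr2:111898357-111898606 (plus strand), FLT3 at chr13:28100577-28100826 (minus strand), AXL at chr19:41218973-41219222 (plus strand) and TYRO3 at chr15:41558962-41559211 (plus strand).
LTK: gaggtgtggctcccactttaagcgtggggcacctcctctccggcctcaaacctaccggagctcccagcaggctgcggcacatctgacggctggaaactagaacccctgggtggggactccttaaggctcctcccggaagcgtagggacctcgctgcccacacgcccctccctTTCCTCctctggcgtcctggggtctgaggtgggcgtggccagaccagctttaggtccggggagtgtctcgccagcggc
CSF1R: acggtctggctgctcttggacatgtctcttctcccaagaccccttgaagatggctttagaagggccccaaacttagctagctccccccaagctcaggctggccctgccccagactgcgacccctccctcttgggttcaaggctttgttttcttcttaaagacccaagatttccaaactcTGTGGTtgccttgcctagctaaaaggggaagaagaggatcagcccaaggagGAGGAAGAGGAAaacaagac
MERTK: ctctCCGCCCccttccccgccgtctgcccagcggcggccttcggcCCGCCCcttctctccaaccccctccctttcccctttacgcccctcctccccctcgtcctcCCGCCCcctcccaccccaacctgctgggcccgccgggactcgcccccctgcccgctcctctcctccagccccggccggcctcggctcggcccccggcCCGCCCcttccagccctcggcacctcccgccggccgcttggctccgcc
FLT3: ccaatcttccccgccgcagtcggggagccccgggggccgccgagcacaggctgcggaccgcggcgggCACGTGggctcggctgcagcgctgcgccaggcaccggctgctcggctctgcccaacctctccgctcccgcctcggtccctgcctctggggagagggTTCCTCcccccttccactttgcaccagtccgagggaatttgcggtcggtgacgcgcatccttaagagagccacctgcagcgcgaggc
AXL: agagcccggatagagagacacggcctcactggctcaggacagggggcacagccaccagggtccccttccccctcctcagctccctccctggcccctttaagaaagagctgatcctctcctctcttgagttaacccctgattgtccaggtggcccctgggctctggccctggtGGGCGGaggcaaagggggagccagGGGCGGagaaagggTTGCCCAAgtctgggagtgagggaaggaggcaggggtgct
TYRO3: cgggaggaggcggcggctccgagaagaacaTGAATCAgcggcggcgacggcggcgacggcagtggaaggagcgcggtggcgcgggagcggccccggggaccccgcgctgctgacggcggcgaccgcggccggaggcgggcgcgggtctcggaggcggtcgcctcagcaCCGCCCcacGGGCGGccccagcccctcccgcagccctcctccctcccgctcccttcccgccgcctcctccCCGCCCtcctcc

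The windows differed in base composition and in motif content. The CSF1R window had 53.2% G and C, RUNX letters 71 bases before the start and the PU.1 core at 20 and 14 bases. The LTK window (66.0% G and C) held the PU.1 core on the opposite strand 78 bases before the start, and so did the FLT3 window (72.0%) at 87 bases, with the CACGTG letters at 183 bases. MERTK (78.8% G and C) held 4 GC boxes and no other of the motifs. TYRO3 (80.0%) held 3 GC boxes and 1 AP-1 match, and AXL (64.4%) held 2 GC boxes and 1 CEBP match. Of the windows not shown, that of IGF1R held 2 GC boxes, that of KIT 1 GC box, the outer one of CSF1R 1 GC box and 1 AP-1 match, the second one of TYRO3 1 RUNX match and the second one of AXL none of the 7 motifs. Over all 35116 promoter windows of the same length, the PU.1 core was in 23.6%, the RUNX letters in 11%, TTGCNNAA in 9.05%, CACGTG in 6.34%, the AP-1 letters in 6.57%, the FOXO letters in 2.98% and the GC box in 42.6%. A match is a stretch of letters and not a measured binding site, and no binding was measured here.

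ERKi against DMSO asks what blocking ERK alone does to these receptors. Of the 8 tested, 6 rose (LTK, CSF1R, MERTK, AXL, FGFR1 and FLT3) and 2 fell (IGF1R and TYRO3) by edgeR's quasi-likelihood test at a Benjamini-Hochberg adjusted p under 0.05. Changes were broad in this comparison, with 34.5% of all tested genes called higher and 35.2% called lower. The median log2 fold change was 1.68 over the 8 receptors and 0.01 over all tested genes. The receptors were chosen with earlier results of these data known, so their shares and median are a description and not a test. In bulk RNA, fewer cells that express a gene and less of its RNA per cell cannot be told apart. The scale assumes that most genes did not change, so each value is relative to that. The plot of log2 fold changes with ERKi, with and without venetoclax, shows all 8.

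**Figure D1:**
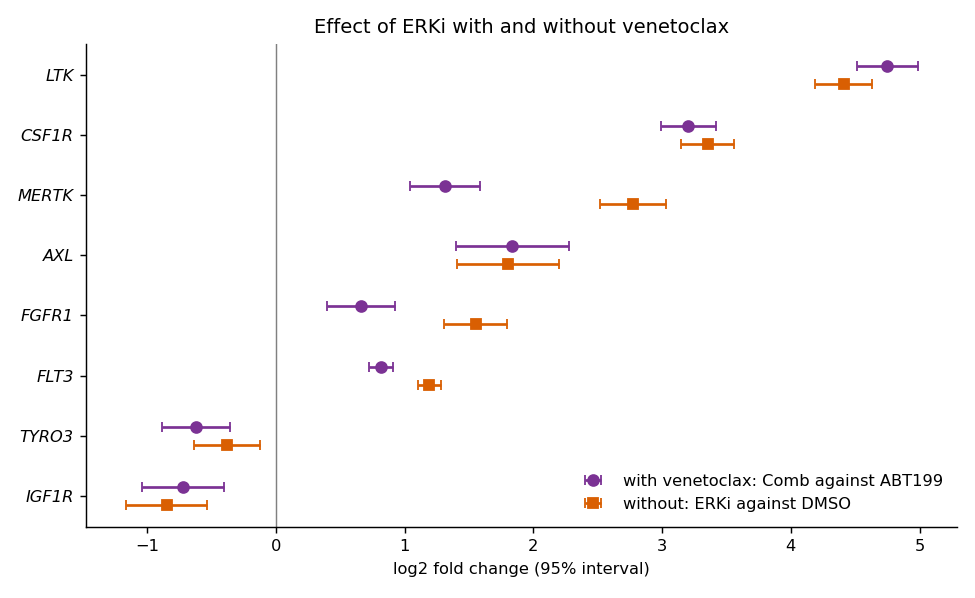
Log2 fold changes of the 8 tested receptors with ERKi, in Comb against ABT199 and in ERKi against DMSO, with bars for the 95% interval of each value and filled markers for adjusted p under 0.05. LTK lies furthest right at 4.75 and 4.41, and IGF1R furthest left at -0.72 and -0.85.

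FLT3, the receptor for FLT3 ligand and a common target of mutation in this leukaemia, was the most abundant of the 9. It had 288.81, 301.54 and 298.18 CPM in Comb, 385.33, 395.85 and 377.26 CPM in ERKi, 167.05, 174.05 and 163.1 CPM in ABT199 and 164.19, 169.5 and 173.75 CPM in DMSO libraries. The ERKi libraries were the highest, the Comb libraries lay apart below them, and the ABT199 and DMSO libraries overlapped. The log2 fold change was 1.19 (2.28-fold, SE 0.0423, adjusted p = 2.66e-13 by edgeR) in ERKi against DMSO. It was 0.81 (SE 0.0422, adjusted p = 5.9e-11) in Comb against DMSO.

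CSF1R, the receptor for the macrophage growth factors CSF1 and IL34, was low without ERK inhibition and high with it. It had 60.98, 61.96 and 66.22 CPM in Comb, 85.03, 82.16 and 78.81 CPM in ERKi, 7.44, 7.05 and 6.02 CPM in ABT199 and 9.76, 6.69 and 7.63 CPM in DMSO libraries. Each library with ERKi was above each library without it, and Comb lay below ERKi without overlap. In ERKi against DMSO CSF1R rose 10.2-fold, or 3.35 in log2 (SE 0.0972, adjusted p = 2.74e-14 by edgeR). In Comb against DMSO it was 2.97 (SE 0.098, adjusted p = 2.6e-13). Of the tested genes, 138 had a higher log2 fold change with ERKi than CSF1R.

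KIT, the stem cell factor receptor, was almost silent. Its counts were 1, 3 and 2 in Comb, 6, 3 and 10 in ERKi, 0, 1 and 1 in ABT199 and 1, 1 and 0 in DMSO libraries, in libraries of at least 19199296 counts. The ERKi libraries were above the ABT199 and DMSO libraries, and Comb and ERKi met at 3 counts. The summed counts of 19 in ERKi against 2 in DMSO gave a depth-adjusted ratio of 9.32 with an exact Poisson 95% interval of 2.25 to 82.5, which covers counting error only. For 6 counts in Comb against 19 in ERKi the ratio was 0.354 (0.116 to 0.922). With no filter on low counts, edgeR gave KIT an adjusted p of 0.0198 in ERKi against DMSO, and DESeq2 gave 0.0417. In Comb against ERKi KIT did not pass, with an adjusted p of 0.332 by edgeR without the filter and 0.318 by DESeq2.

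MERTK, a receptor of macrophages for the bridging ligands GAS6 and protein S, had 7.19, 6.93 and 7.12 CPM in Comb, 22.12, 23.05 and 23.38 CPM in ERKi, 3.04, 2.69 and 2.81 CPM in ABT199 and 4.01, 3.01 and 2.99 CPM in DMSO libraries. Comb lay between ERKi and the groups without ERKi, and overlapped neither. MERTK rose 6.84-fold in ERKi against DMSO, or 2.77 in log2 (SE 0.12, adjusted p = 2.78e-12 by edgeR). In Comb against DMSO it rose by 1.09 (SE 0.126, adjusted p = 1.05e-06).

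AXL, the GAS6 receptor of the same family and one known from drug-tolerant cancer cells, had 5.62, 5.63 and 5.71 CPM in Comb, 9.81, 11.08 and 9.59 CPM in ERKi, 1.45, 1.06 and 2.22 CPM in ABT199 and 2.61, 2.64 and 3.46 CPM in DMSO libraries. The 4 groups did not overlap, in the order ERKi, Comb, DMSO and ABT199. AXL rose 3.49-fold in ERKi against DMSO, or 1.81 in log2 (SE 0.186, adjusted p = 1.95e-07 by edgeR), and by 0.96 in Comb against DMSO (SE 0.192, adjusted p = 0.000341). Its exons overlap an antisense gene, AC011510.1, by 67 bases (GENCODE v29), and the strand setting of the counting is not given.

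TYRO3, the other member of that family, moved the other way and by little. It had 10.42, 9.91 and 10.32 CPM in Comb, 14.35, 10.53 and 10.99 CPM in ERKi, 15.57, 17.8 and 13.81 CPM in ABT199 and 17.25, 15.02 and 14.37 CPM in DMSO libraries. The highest ERKi library sat just under the lowest DMSO library, and Comb lay below both. TYRO3 was at -0.38 in ERKi against DMSO (SE 0.122, adjusted p = 0.0112 by edgeR), a call lost without ERKi replicate 2 (adjusted p = 0.0578) or 3 (0.0524). In Comb against DMSO the log2 value of TYRO3 was -0.60 (SE 0.125, adjusted p = 0.000463).

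IGF1R, the receptor for insulin-like growth factors, fell too. It had 3.85, 3.41 and 4.56 CPM in Comb, 3.7, 3.79 and 3.31 CPM in ERKi, 7.29, 6.64 and 5.52 CPM in ABT199 and 6.67, 6.41 and 6.35 CPM in DMSO libraries. Libraries with ERKi were all below those without it, while Comb and ERKi overlapped. The log2 fold change was -0.85 in ERKi against DMSO (SE 0.149, adjusted p = 8.52e-05 by edgeR) and -0.72 in Comb against DMSO (SE 0.15, adjusted p = 0.000522).

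FGFR1, a fibroblast growth factor receptor, had 10.32, 10.62 and 9.38 CPM in Comb, 25.16, 26.51 and 23.29 CPM in ERKi, 6.09, 7.66 and 5.43 CPM in ABT199 and 9.52, 8.05 and 7.97 CPM in DMSO libraries. ERKi stood above every other library, while Comb and DMSO overlapped. FGFR1 rose 2.93-fold in ERKi against DMSO, or 1.55 in log2 (SE 0.115, adjusted p = 2.8e-09 by edgeR). In Comb against DMSO the value was 0.25 (SE 0.121, adjusted p = 0.0841), which did not pass, and without DMSO replicate 1 it was 0.33 and passed (adjusted p = 0.0278). FGFR1 exons overlap the oppositely oriented gene LETM2 by 138 bases and the antisense AC087623.1 by 156 bases; LETM2 was at -1.03 in ERKi against DMSO.

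LTK, leukocyte tyrosine kinase, a relative of ALK that binds the small ligands ALKAL1 and ALKAL2, made the largest move of the 8. It had 41.4, 40.89 and 44.53 CPM in Comb, 47.52, 46.6 and 49.09 CPM in ERKi, 2.05, 1.32 and 1.33 CPM in ABT199 and 2.37, 2.26 and 2.09 CPM in DMSO libraries. The libraries with ERKi stood far above the rest, and none of the 4 groups overlapped another. LTK rose 21.3-fold in ERKi against DMSO, or 4.41 in log2 (SE 0.104, adjusted p = 3.52e-15 by edgeR), and by 4.24 in Comb against DMSO (SE 0.105, adjusted p = 8.8e-15).

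**Figure D2:**
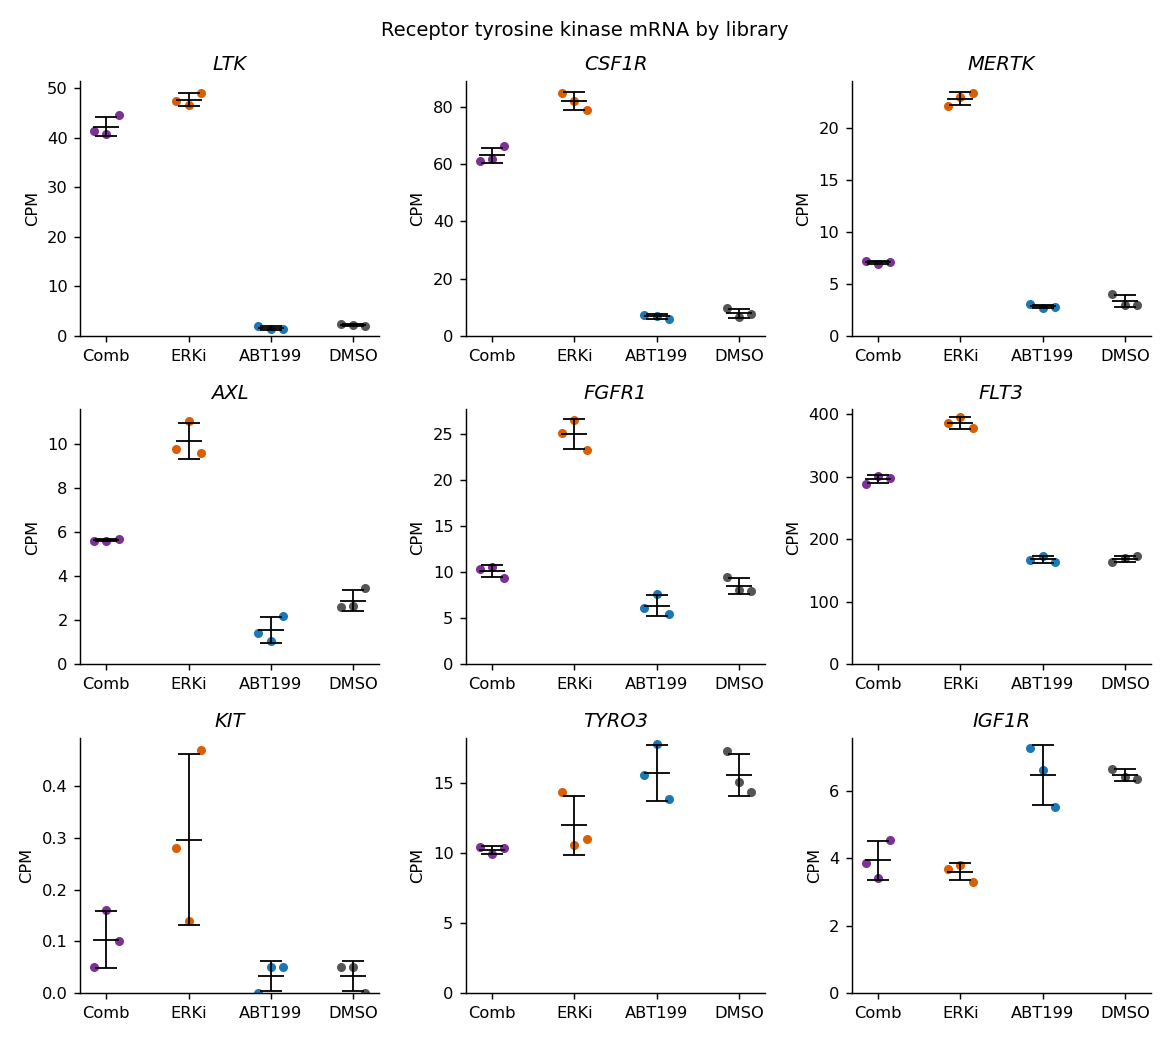
CPM of each of the 9 receptors in the 12 libraries, as points, with the mean and SD of each group (n = 3). In the LTK panel Comb (40.89 to 44.53 CPM) and ERKi (46.6 to 49.09 CPM) stand above ABT199 and DMSO (1.32 to 2.37 CPM), while in the FGFR1 panel only ERKi stands above the rest.

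Against DMSO, Comb raised 5 of the 8 and lowered 2, where 30.4% of all tested genes were called higher and 33.4% lower. FGFR1 was the receptor that passed in neither direction. Against ABT199, Comb raised 6 and lowered 2 of the 8, against 32.1% and 34.2% of all tested genes. That contrast asks what ERKi adds once venetoclax is present, and its log2 fold changes were 4.75 for LTK, 3.21 for CSF1R, 1.84 for AXL, 1.31 for MERTK, 0.82 for FLT3, 0.66 for FGFR1, -0.62 for TYRO3 and -0.72 for IGF1R. The largest adjusted p among them was 0.000489, for IGF1R, by edgeR.

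Venetoclax alone moved none of the 8 past the threshold. By edgeR 0 were called higher and 0 lower, against 0.0198% and 0.382% of all tested genes. At an unadjusted p under 0.05 by edgeR 3 were lower, where 1382 of all 15173 tested genes passed in either direction. DESeq2 called 1 lower, AXL, and limma-voom called 0. For AXL the ABT199 and DMSO libraries did not overlap and the log2 fold change was -0.88 (95% interval -1.33 to -0.42, adjusted p = 0.143 by edgeR); DESeq2 gave an adjusted p of 0.0488, edgeR without the filter 0.0101, and edgeR without ABT199 replicate 3 a value of -1.20 and 0.0193. The libraries did not overlap for LTK (-0.51, interval -0.86 to -0.17, adjusted p = 0.363) and FGFR1 (-0.41, interval -0.68 to -0.15, adjusted p = 0.312) either. The share of all tested genes without overlap was not computed. For FLT3 the interval was narrow, -0.10 to 0.08 around -0.01. The intervals were -0.49 to 0.03 for CSF1R, -0.52 to 0.06 for MERTK, -0.24 to 0.27 for TYRO3 and -0.30 to 0.31 for IGF1R.

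Venetoclax on top of ERKi gave another picture. In Comb against ERKi 5 of the 8 fell, MERTK, FGFR1, AXL, FLT3 and CSF1R, where 24.3% of all tested genes were called lower. By edgeR 0 rose, where 26.5% of all tested genes were called higher, and 0 were higher at an unadjusted p under 0.05, by DESeq2 or by limma-voom. The median log2 fold change was -0.38 over the 8 receptors and 0 over all tested genes. MERTK fell by 1.69 on the log2 scale, which left 0.31 of its ERKi level (SE 0.112, adjusted p = 5.93e-09 by edgeR). FGFR1 fell by 1.31 to 0.405 of that level (SE 0.114, adjusted p = 1.38e-07 by edgeR). AXL was at -0.85 (adjusted p = 0.000819), FLT3 at -0.38 (1.4e-06) and CSF1R at -0.38 (0.000844), each by edgeR.

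The remaining receptors did not pass in Comb against ERKi. LTK was at -0.18 (SE 0.0746, adjusted p = 0.0609 by edgeR) with no overlap between the groups, and it passed with a filter of 1 CPM in 3 libraries (adjusted p = 0.0357), with limma-voom (0.0183), with only the libraries compared (0.00269), without DMSO replicate 1 (0.0237) and without ABT199 replicate 1 (0.0298). TYRO3 was at -0.23 (adjusted p = 0.151 by edgeR), also with no overlap, and IGF1R at 0.13 (0.506) with overlap. How many of all tested genes lacked overlap in Comb against ERKi was not computed.

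**Figure D3:**
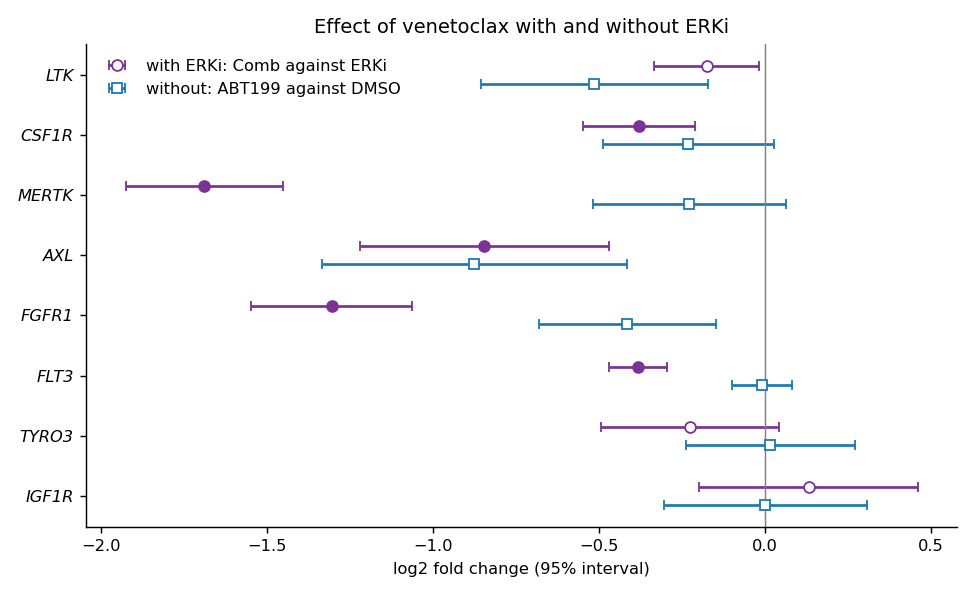
Log2 fold changes of the 8 tested receptors with venetoclax, in Comb against ERKi and in ABT199 against DMSO, with bars for the 95% interval of each value, filled markers for adjusted p under 0.05 and open markers for the rest. MERTK is at -1.69 in Comb against ERKi and -0.23 in ABT199 against DMSO, and FGFR1 at -1.31 and -0.41.

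The difference between those 2 effects of venetoclax was tested as an interaction, the log2 fold change of Comb against ERKi minus that of ABT199 against DMSO. It was called below 0 for 3 of the 8 receptors, where 18% of all tested genes were, and above 0 for none by edgeR, DESeq2 or limma-voom or at an unadjusted p under 0.05, where 21.3% of all tested genes were. MERTK was at -1.46 (SE 0.177, adjusted p = 1.24e-05 by edgeR), FGFR1 at -0.89 (SE 0.17, adjusted p = 0.000656) and FLT3 at -0.37 (SE 0.0593, adjusted p = 0.000151). AXL, which fell in Comb against ERKi, had an interaction of 0.03 (SE 0.264, adjusted p = 0.943 by edgeR), with -0.85 in Comb against ERKi and -0.88 in ABT199 against DMSO. CSF1R was at -0.15 (adjusted p = 0.454), and without DMSO replicate 1 at -0.31 (0.0414). LTK was at 0.34 (adjusted p = 0.155), and without ABT199 replicate 1 at 0.58 (0.0362).

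Fibroblasts also express AXL and FGFR1. The summed fibroblast markers were lower in Comb than in ERKi, as AXL and FGFR1 were, while the ERKi and DMSO sums of the markers overlapped. Their summed level over 10 markers was 2.99, 2.76 and 2.67 CPM in Comb, 17.5, 12.7 and 32.2 CPM in ERKi, 29.8, 33.2 and 17.7 CPM in ABT199 and 7.63, 43.1 and 25.3 CPM in DMSO libraries, and THY1 and POSTN were at 0 in Comb. The markers did not all follow the sum. PDGFRB had 0.91 to 1.03 CPM in Comb and 0.76 to 1.12 CPM in ERKi libraries. FAP had 0.32 to 0.58 CPM in Comb and 0.51 to 0.81 CPM in ERKi libraries, so both overlapped. The part of fibroblast RNA in the fall of AXL and FGFR1 in Comb against ERKi was not tested.

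Levels of different genes were compared as CPM per kilobase of exon, using the union of exons in GENCODE v29, which counts exons of every annotated transcript. On this scale the 9 receptors summed to 100.1 in Comb, 132.4 in ERKi, 45.46 in ABT199 and 46.68 in DMSO libraries. FLT3 held 71.1% of the sum in Comb, 70.1% in ERKi, 88.9% in ABT199 and 87.2% in DMSO libraries. With ERKi the order was FLT3 (92.8), CSF1R (15.9), LTK (13.7), MERTK (4.86), AXL (1.97), FGFR1 (1.8), TYRO3 (1.09), IGF1R (0.258) and KIT (0.0532), and of neighbours in that order AXL and FGFR1 alone overlapped between libraries. With DMSO it was FLT3 (40.7), CSF1R (1.56), TYRO3 (1.42), MERTK (0.71), LTK (0.641), FGFR1 (0.615), AXL (0.563), IGF1R (0.465) and KIT (0.00572). There CSF1R overlapped TYRO3, MERTK overlapped LTK, LTK overlapped FGFR1 and FGFR1 overlapped AXL, while AXL and IGF1R did not overlap.

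In Comb the order was FLT3 (71.2), CSF1R (12.2), LTK (12.1), MERTK (1.51), AXL (1.1), TYRO3 (0.934), FGFR1 (0.73), IGF1R (0.283) and KIT (0.019) CPM per kilobase, with CSF1R and LTK overlapping. In ABT199 libraries TYRO3 (1.44) and CSF1R (1.33) overlapped behind FLT3 (40.4), and MERTK (0.606) stood apart. Below it came IGF1R (0.465), FGFR1 (0.462), LTK (0.449) and AXL (0.306), each overlapping the one before it except IGF1R, and KIT (0.00599) came last with no overlap. By rank LTK stood at place 3 of the 9 in Comb and ERKi, 7 in ABT199 and 5 in DMSO.

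**Figure D4:**
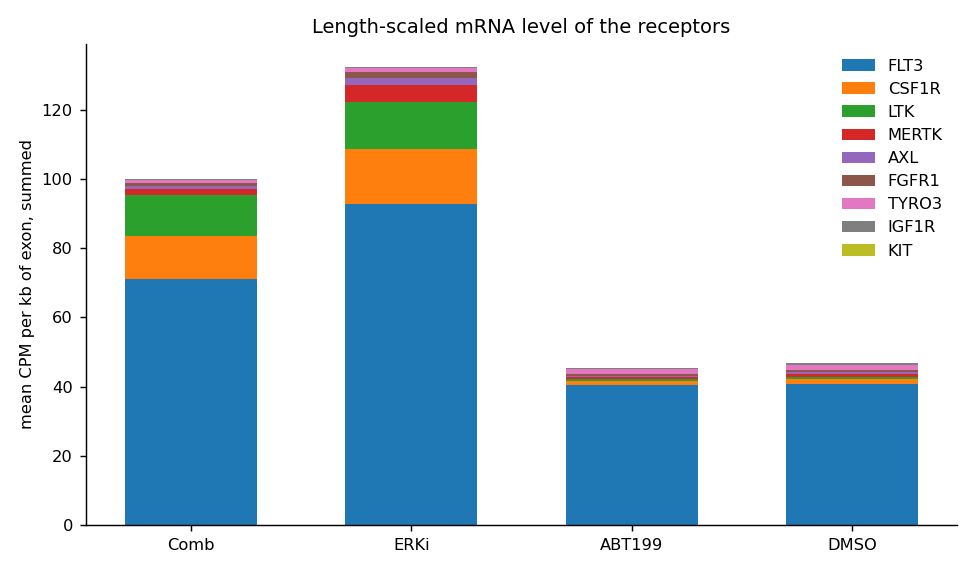
Mean level of the 9 receptors in each group as CPM per kilobase of exon, stacked in 1 bar a group from 0. FLT3 is the largest segment in all 4 bars, at 71.2 in Comb, 92.8 in ERKi, 40.4 in ABT199 and 40.7 in DMSO.

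Of 12 ligands of these receptors, 7 passed the filter, among them IGF1 through the ERKi libraries alone, where it is high, so its test is not used. Of the rest, KITLG and PROS1 were called higher and CSF1 lower in ERKi against DMSO, where 34.5% of all tested genes were called higher and 35.2% lower. In Comb against ERKi KITLG and PROS1 were called lower, where 24.3% of all tested genes were. KITLG, stem cell factor, had 0.66, 1.08 and 0.52 CPM in Comb, 4.26, 3.23 and 2.7 CPM in ERKi, 0.4, 0.35 and 0.2 CPM in ABT199 and 0.72, 0.94 and 1.28 CPM in DMSO libraries. The ERKi libraries were above all others, at 1.78 in log2 against DMSO (SE 0.289, adjusted p = 3.58e-05 by edgeR). In Comb against ERKi KITLG fell by 2.17 (SE 0.304, adjusted p = 2.13e-05 by edgeR). Its receptor KIT held the few counts given above.

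IGF1, a ligand of IGF1R, had 0.46, 0.22 and 0.37 CPM in Comb, 1.42, 0.97 and 1.82 CPM in ERKi, 0.15, 0.05 and 0.0 CPM in ABT199 and 0.1, 0.19 and 0.05 CPM in DMSO libraries. Its counts were 9, 4 and 7 in Comb, 30, 21 and 39 in ERKi, 3, 1 and 0 in ABT199 and 2, 4 and 1 in DMSO libraries, and ERKi stood above the rest. PROS1, protein S, a ligand of MERTK and TYRO3, had 25.2, 24.97 and 29.23 CPM in Comb, 34.01, 33.76 and 33.21 CPM in ERKi, 29.2, 28.65 and 26.78 CPM in ABT199 and 26.19, 29.43 and 27.88 CPM in DMSO libraries. PROS1 was at 0.27 in ERKi against DMSO (adjusted p = 0.00237 by edgeR) and -0.35 in Comb against ERKi (adjusted p = 0.000693), with an interaction of -0.37 (adjusted p = 0.00886).

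CSF1, a ligand of CSF1R, was scattered between libraries, with 1.47, 0.54 and 1.26 CPM in Comb, 0.9, 0.69 and 1.44 CPM in ERKi, 1.6, 1.72 and 1.92 CPM in ABT199 and 1.59, 1.08 and 3.32 CPM in DMSO libraries. ERKi and DMSO overlapped, and the log2 fold change was -0.98 (SE 0.4, adjusted p = 0.0388 by edgeR). Without DMSO replicate 3, the highest, it was -0.41 and did not pass (adjusted p = 0.362), nor did CSF1 pass without ERKi replicate 1 (0.0994) or 2 (0.137), with DESeq2 (0.0527) or with limma-voom (0.0712). GAS6, the ligand shared by AXL, MERTK and TYRO3, had 8.7, 5.8 and 6.13 CPM in Comb, 5.64, 6.1 and 7.08 CPM in ERKi, 4.04, 4.26 and 3.8 CPM in ABT199 and 4.69, 4.95 and 5.98 CPM in DMSO libraries. GAS6 was at 0.40 in Comb against DMSO (adjusted p = 0.0432 by edgeR), and at 0.19 (0.312) without Comb replicate 1, the highest. That call was also lost with DESeq2 (0.0592), and without DMSO replicate 1 (0.125) or 2 (0.112). In ERKi against DMSO GAS6 was at 0.27 (adjusted p = 0.159 by edgeR). FLT3LG, the FLT3 ligand, had 3.19, 3.95 and 3.25 CPM in Comb, 3.93, 3.37 and 2.0 CPM in ERKi, 1.4, 1.47 and 1.38 CPM in ABT199 and 3.09, 1.7 and 1.8 CPM in DMSO libraries. It rose in Comb against ABT199 (1.29, adjusted p = 0.000549 by edgeR). In Comb against DMSO FLT3LG was at 0.66 (adjusted p = 0.0354 by edgeR), a call lost without DMSO replicate 2 (0.139) or 3 (0.127) or Comb replicate 2 (0.121) or 3 (0.0539) and with DESeq2 (0.0508), and the ERKi and DMSO libraries overlapped. ALKAL1, a ligand of LTK, ran from 0.2 to 1.45 CPM over the 12 libraries and passed in no comparison. Of the 5 ligands that did not pass the filter, IGF2 had 0 counts in all 12 libraries and IL34, FGF1, FGF2 and ALKAL2 had at most 13 counts in any.

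**Figure D5:**
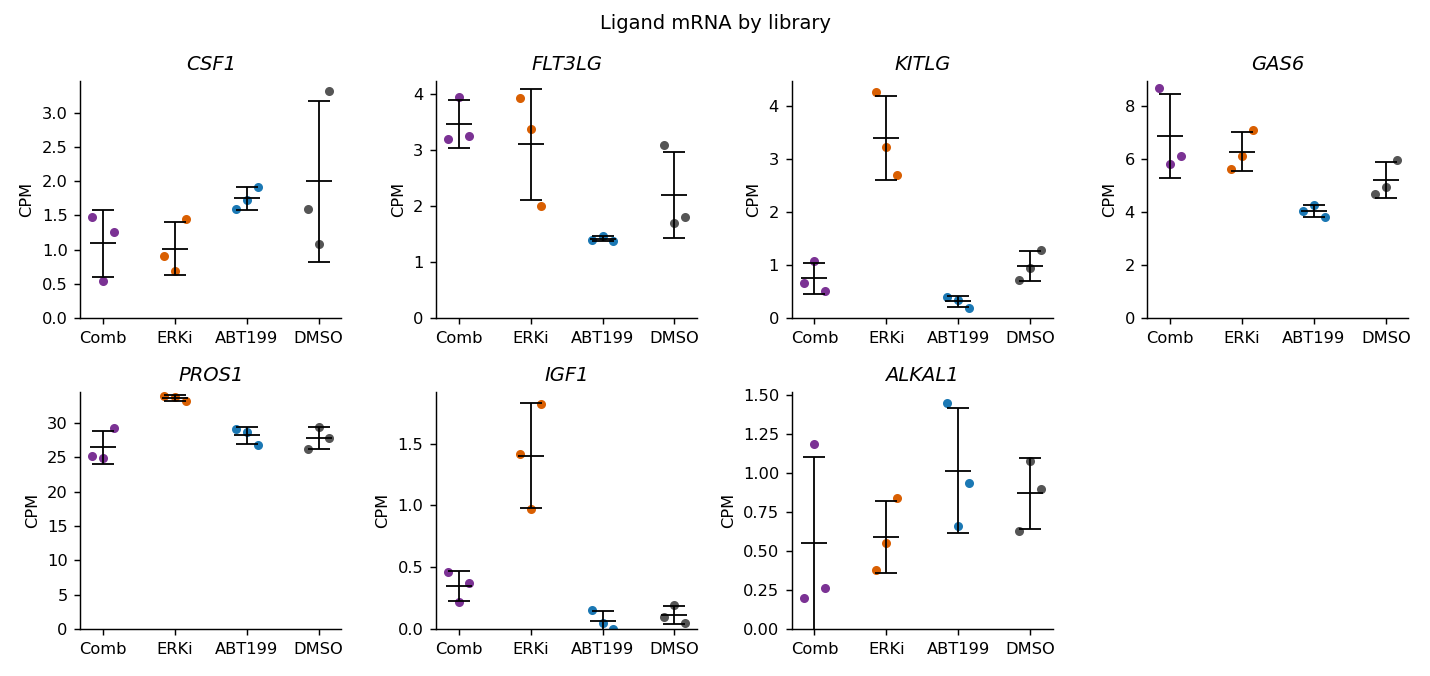
CPM of the 7 tested ligands in the 12 libraries, as points, with the mean and SD of each group (n = 3). KITLG is at 2.7 to 4.26 CPM in ERKi and at most 1.28 CPM in any other library, and IGF1 at 0.97 to 1.82 CPM in ERKi and at most 0.46 CPM in any other.

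Further genes of receptor signalling were read against the share of all tested genes called, which was 34.5% higher and 35.2% lower in ERKi against DMSO, and 26.5% higher and 24.3% lower in Comb against ERKi. The lists were chosen with earlier results of these data known, so their shares are a description and not a test. Of 49 other receptor tyrosine kinases 19 were tested, and 8 rose and 5 fell in ERKi against DMSO, with a median of 0.24, shares of 42.1% and 26.3% of those tested. Of the 19, MST1R passed the filter through the ERKi libraries alone, with 10, 17 and 11 counts. EGFR passed through libraries with ERKi and STYK1 through libraries without it. These shares thus depend in part on the filter and are not read as a result. FGFR3 rose by 1.51, while FGFR4, a further receptor for fibroblast growth factors, was at -2.68, the ephrin receptor EPHB4 at -1.93 and the receptor PTK7, which lacks kinase activity, at -1.58 (adjusted p of 2.31e-07 or lower by edgeR). With both drugs against ERKi alone 3 rose and 4 fell, shares of 15.8% and 21.1%, with EPHB4 at 0.82, FGFR4 at 0.78 (adjusted p = 0.0411 by edgeR, lost with DESeq2 at 0.0595 and without any 1 of the ERKi replicates 1 and 2, the Comb replicates 1 and 3 and ABT199 replicate 1, at 0.0504 to 0.159), EPHB3 at -0.80 and the Wnt receptor RYK at -0.32.

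Of 20 adaptors and effectors, 13 rose and 5 fell in ERKi against DMSO, with a median of 0.32, shares of 65% and 25% against 34.5% and 35.2% of all tested genes. The docking proteins GAB2 (1.79) and GAB3 (1.67) and the RAS activators SOS2 (0.94) and SOS1 (0.88) led (adjusted p of 1.89e-08 or lower by edgeR). In Comb against ERKi 5 rose and 10 fell, shares of 25% and 50% against 26.5% and 24.3% of all tested genes. Those that fell included GAB1 (-0.85), the insulin receptor substrate IRS1 (-0.84), PIK3CA (-0.63), the catalytic subunit of PI3 kinase, and GAB2 (-0.62).

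Of 20 negative regulators of receptors 18 were tested, and 9 rose and 6 fell in ERKi against DMSO, with a median of 0.15, shares of 50% and 33.3% against 34.5% and 35.2% of all tested genes. GRB10, which binds and restrains insulin family receptors such as IGF1R, was at -1.40, while CBLB, a ubiquitin ligase for receptors, rose by 1.13, DOK2, an adaptor that dampens RAS signalling, by 0.95 and SH2B3, a brake on cytokine receptors, by 0.72 (adjusted p of 3.7e-09 or lower by edgeR). Set against ERKi, Comb had 2 higher and 6 lower, shares of 11.1% and 33.3% against 26.5% and 24.3% of all tested genes, with CBLB at -0.74, SLA, an adaptor that lowers receptor levels, at -0.73, the phosphatase UBASH3B at -0.71 and GRB10 at -0.46. Among the 4 genes for ectodomain shedding, ADAM17 (0.44) and ADAM10 (0.28), proteases that cleave receptors such as AXL and MERTK from the surface, rose in ERKi against DMSO and TIMP3, an inhibitor of ADAM17, was at -1.83. All of these were lower in Comb against ERKi, ADAM17 at -0.35, ADAM10 at -0.34 and TIMP3 at -1.40 (adjusted p of 0.00856 or lower by edgeR).

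Of 18 transcription factors known to act at the receptor genes, 15 rose and 1 fell in ERKi against DMSO, with a median of 0.53, shares of 83.3% and 5.56% against 34.5% and 35.2% of all tested genes. This list too was chosen with earlier results of these data known, so its shares are a description and not a test. CEBPB, a myeloid factor, rose by 1.45, FOXO4, which AKT keeps out of the nucleus, by 1.39 and TFEB, a factor of lysosomal genes, by 1.19, and GATA2, a factor of stem and mast cells that acts at KIT, was at -2.27 (adjusted p of 7.33e-07 or lower by edgeR). In Comb against ERKi 6 rose and 7 fell, shares of 33.3% and 38.9% against 26.5% and 24.3% of all tested genes. GATA2 was at 2.48 there, FOXO1 at -1.43, MITF, which acts at KIT in mast cells, at -0.84 and TAL1 at -0.75 (adjusted p of 0.0163 or lower by edgeR). The TAL1 call was lost without ERKi replicate 3 (adjusted p = 0.0787) or Comb replicate 3 (0.0713).

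By position, LTK and TYRO3 lie close together on chromosome 15, LTK at 41503637 to 41513827 and TYRO3 at 41559212 to 41583589 (GRCh38.p14), and moved in opposite directions with ERKi. ITPKA, which ends beside the 3′ end of LTK, rose by 1.51 in ERKi against DMSO (adjusted p = 8.68e-05 by edgeR), and RPAP1, on the other side, was at -0.34 (adjusted p = 0.00108). AXL stands between CYP2S1 (-2.17) and HNRNPUL1 (-0.42) on chromosome 19, both lower with ERKi while AXL was higher. PAN3 next to FLT3 rose by 0.63 and TMEM87B next to MERTK by 0.45, less than the receptors did.

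The genes whose log2 CPM ran most like that of each receptor over the 12 libraries are given with Pearson's r, as a description. The libraries fall into those with and those without ERKi, so a gene that splits them the same way has a high r. For LTK they were HPS1 (0.997), BARX1-DT and PLD3 (both 0.996), for CSF1R RNF130, TMEM104 and ANPEP (each 0.999), and for FLT3 EPAS1, YPEL5 and RCAN3 (each 0.998). For MERTK they were CLK1 (0.997), ABHD4 (0.996) and METTL7A (0.995), and for FGFR1 TNFSF10 (0.991), AGRN (0.989) and RUBCN (0.986). AXL ran most like GPAT3 (0.976), PLA2G4B and LOC107984293 (both 0.97), IGF1R like KIAA1549 and GAR1 (both 0.979) and MAP3K6 (0.976), and TYRO3 like CARS1 (0.959), LIMD2 (0.947) and CKB (0.932).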

How the data were processed

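The authors deposited 1 table of raw counts, whole numbers of reads per gene symbol, for 12 libraries of poly(A) RNA sequenced as paired ends. HISAT2, HTSeq, DESeq2 and the hg38 build are named per the submitters' processing notes; versions, annotation release and strand setting were likewise not given in the sources used here. Overlapping or antisense genes may share reads. Groups and replicate numbers came from the labels.

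Counts were tested with edgeR 4.0.16 in R 4.3.3. Genes passed filterByExpr (minimum count 10, minimum total 15), libraries were scaled by TMM factors, and the 4 group means were fitted jointly (8 residual degrees of freedom). The 6 comparisons used quasi-likelihood F tests, and p-values were adjusted by Benjamini-Hochberg over all 15173 tested genes, with calls at 0.05. Prior counts were edgeR's default. Standard errors were derived from F (log2 fold change over its square root). CPM is the deposited count over the scaled library size, times 1e+06. Intervals are 95% intervals.

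All 9 receptors are named, with every tested ligand of at least 1 CPM in any group, up to 4 called genes of each other list in ERKi against DMSO and in Comb against ERKi, and the 3 genes most like each receptor. Neighbouring genes and single marker genes were named outside this rule. The receptors and lists were chosen with earlier results of these data known. The pipeline was tested on simulated data. As alternatives, the tests were rerun with DESeq2 1.42.0, with limma-voom (limma 3.58.1), with RLE scaling, without a filter or with 1 CPM in 3 libraries, with the replicate block, on the compared libraries alone, and with every library left out in turn. For genes other than the receptors these were added after seeing the data. Figures used matplotlib 3.10.9.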

Additional observations from a re-analysis of the deposited data

Results flagged for a closer look

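Venetoclax had an effect on 3 of the 8 tested receptors that differed with and without ERKi by the test of the difference itself, with p adjusted by edgeR over all tested genes. That is a share of 37.5%, all below 0. Of all tested genes, 18% were called below 0 and 21.3% above 0. MERTK had an interaction of -1.46 (adjusted p = 1.24e-05): it was at -1.69 in Comb against ERKi and at -0.23 in ABT199 against DMSO. FGFR1 had an interaction of -0.89 (adjusted p = 0.000656), with -1.31 in Comb against ERKi and -0.41 in ABT199 against DMSO. FLT3 had an interaction of -0.37 (adjusted p = 0.000151), with -0.38 in Comb against ERKi and -0.01 in ABT199 against DMSO. In all 3 the Comb libraries lay below the ERKi libraries without overlap. The same held for AXL, CSF1R, LTK and TYRO3, whose interactions were not called. The share of all tested genes without overlap in Comb against ERKi was not computed, so the lack of overlap is a description only.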

How the results depend on the processing

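Of 904 values of single receptors under the alternatives, 874 kept their direction and their side of the threshold, 11 passed it anew, 2 lost it and 17 changed sign. All 17 were values that no fit called. IGF1R in ABT199 against DMSO was at -0.01 with limma-voom, at 0 with a filter of 1 CPM in 3 libraries, at 0 with the replicate block and from -0.09 to 0.11 with a library left out. With a library left out, TYRO3 ran from -0.08 to 0.10 and FLT3 from -0.04 to 0.01 in ABT199 against DMSO, and the AXL interaction from -0.18 to 0.36. The 2 lost calls were those of TYRO3 in ERKi against DMSO, so that 1 to 2 receptors were lower there with a library left out. In ABT199 against DMSO 1 receptor was lower with DESeq2 and 1 with no filter, and 0 to 1 with a library left out; the interaction had 0 to 1 receptors higher. Counts over all genes moved by more than 1.5 times in ABT199 against DMSO alone. There the 3 genes higher became 12 with DESeq2, 74 with no filter, 1 with only the libraries compared, 1 with the replicate block and 1 to 17 with a library left out. The 58 lower became 168 with no filter, 32 with only the libraries compared and 30 to 81 with a library left out; the cause was not tested. Same-numbered libraries of different groups did not deviate together (r from -0.074 to 0.094 over 18 pairs), so the numbers were not taken to pair the samples, and the replicate block changed no other call of a receptor. Other genes named in the text kept their call in all but 37 of 1215 values under the same alternatives, which were tried on them after seeing the data. The lost calls were of CSF1 in ERKi against DMSO and of GAS6 and FLT3LG in Comb against DMSO. Those of FGFR4, ETV4 and TAL1 were lost in Comb against ERKi. With 3 libraries a group and 1 to 4 CPM, AXL, LTK and MERTK without ERKi rest on few counts, which limits what venetoclax alone could show.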

Other observations

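Among the epithelial markers, KRT19, a keratin, had 0 counts in every Comb library, 0, 27 and 0 counts in ERKi, 0, 13 and 0 counts in ABT199 and 0, 16 and 0 counts in DMSO libraries. CDH1, E-cadherin, had 0 counts in every Comb library, 0, 3 and 0 counts in ERKi, 0, 2 and 0 counts in ABT199 and 0, 1 and 0 counts in DMSO libraries. Replicate 2 of ERKi, ABT199 and DMSO thus shared counts of both genes that the other replicates lacked, though for CDH1 these were at most 3 counts. Other epithelial markers did not follow this pattern. CLDN4 was in every Comb library (0.43 to 0.52 CPM) and every ERKi library (0.24 to 0.56 CPM), and KRT18 was in every ERKi library (0.09 to 0.18 CPM). The labels do not say what same-numbered libraries share.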
